A study of Mus musculus with 4 samples.

Results

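The 5 genes described here are the 4 junctophilins, Jph1, Jph2, Jph3 and Jph4, and the translationally controlled tumour protein gene Tpt1, found by their symbols among the 19465 features that the probe panel measured in a mouse brain. In GRCm38 with the GENCODE vM21 annotation, Jph1 (ENSMUSG00000042686) lies on chromosome 1 from 16964560 to 17097889 on the minus strand and Jph2 (ENSMUSG00000017817) on chromosome 2 from 163336242 to 163397993 on the minus strand. Jph3 (ENSMUSG00000025318) lies on chromosome 8 from 121729623 to 121794276 on the plus strand. Jph4 (ENSMUSG00000022208) and Tpt1 (ENSMUSG00000060126) share chromosome 14, from 55106826 to 55116935 on the minus strand and from 75845093 to 75848525 on the plus strand. The study compared the offspring of wild-type C57BL/6J dams, 8 weeks old when randomised, that were fed a diet with 2 mg/kg folic acid (the MF group) or with 20 mg/kg folic acid (the HF group). Both diets began 2 weeks before mating and ran through pregnancy and lactation, and the male pups of both groups were killed on postnatal day 21. Each group gave 2 coronal brain sections, numbered replicate 1 and 2, so that 4 sections entered every comparison. No manipulation targeted a junctophilin or Tpt1, and the genotype was the same in both groups.

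Junctophilins are bridging proteins. One end of the molecule sits in the endoplasmic or sarcoplasmic reticulum and the other binds the inner face of the plasma membrane, and the gap they hold closed is where ryanodine receptors are set opposite calcium channels of the cell surface. Jph1 and Jph2 are best known from skeletal and cardiac muscle, whereas Jph3 and Jph4 are the neuronal members of the family and couple calcium release to calcium-activated potassium channels in hippocampal and cerebellar neurons. Tpt1 encodes an abundant, widely expressed protein linked to growth and cell survival, and its mRNA carries the terminal oligopyrimidine tract shared by ribosomal protein and elongation factor mRNAs, by which the TOR pathway tunes their translation. The study reported Jph1 as higher and Tpt1 as lower in the HF group in single nuclei of dentate gyrus neurons. It then followed both up on the sections used here and described similar changes there. The values of Jph1 and Tpt1 below are therefore no independent evidence of a direction.

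The tissue was fixed in formalin, embedded in paraffin and cut at 5 µm, and RNA was read by pairs of probes that are counted as unique molecular identifiers (UMIs) in spots 55 µm wide. A spot holds several cells or parts of cells, so fewer cells of a type and less RNA per cell cannot be told apart in any value below. The sections held 34983708 to 90098381 UMIs, of which the 3197 to 3598 spots kept per section held 34982061 to 90096877, and MF replicate 1 stood apart as the deepest, with a median of 23543.5 UMIs per spot against 9286 to 12074.5 in the others. Levels are given as CPM, the UMIs of a gene per 1000000 UMIs of the same spots. They were compared between areas and sections for 1 gene at a time and never between genes, because probes differ in how well they capture their target. The spots were divided into 23 areas by clustering on the other genes. The 5 genes and the pathway lists used below took no part in it, but the areas still come from the expression of the same spots. Areas carry an anatomical name where their leading genes held markers of it, such as Fibcd1, Wfs1 and Spink8 for CA1 or Dsp, C1ql2 and Prox1 for the dentate gyrus (DG). The remaining areas are called by their leading genes. The DG comprised 38, 34, 40 and 55 spots in MF replicates 1 and 2 and HF replicates 1 and 2, the order used for all values by section.

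Jph1 stood out in the granule cell area of the DG, Jph3 and Jph4 were spread over cortical, striatal and hippocampal grey matter with CA1 at the top, and Jph2 was near the detection limit except in the meninges. Tpt1 ran the other way from the neuronal junctophilins, with the choroid plexus, white matter and meninges at the top and CA1 at the bottom. In the edgeR quasi-likelihood test of each area against the mean of the other areas, with the section as a block, Jph1 was called higher in 8 and lower in 6 of the 23 areas, Jph3 in 7 and 7, Jph4 in 11 and 8, and Tpt1 in 3 and 3. A call required an adjusted p below 0.05 and a difference of at least 1.2-fold, and over all genes and areas tested 29.6% of tests met it.

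**Figure D1:**
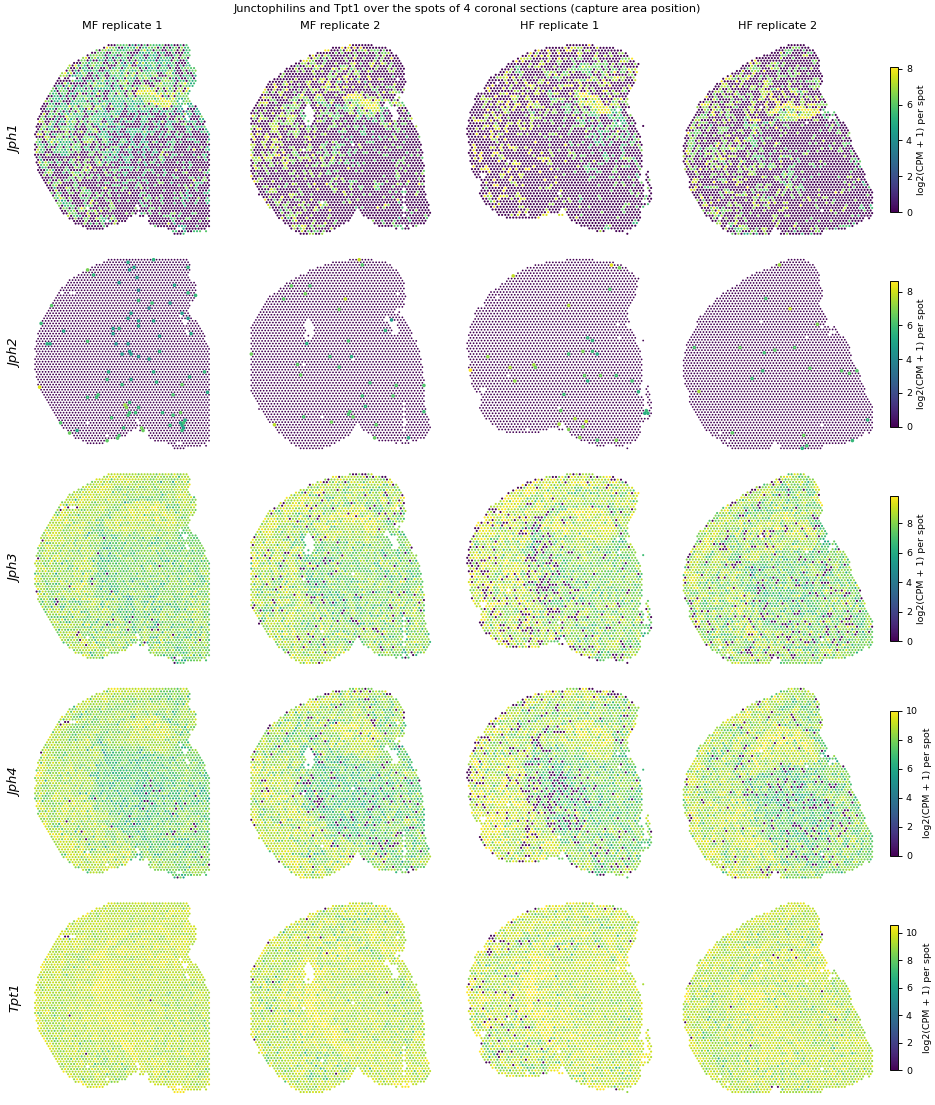
Maps of the 5 genes (rows of panels) in the 4 sections (columns), each point a spot placed by its position on the slide and coloured by log2(CPM + 1). A single UMI gives a higher CPM in a shallower section, so colours are to be compared within a section: Jph1 marks the DG in all 4, Jph4 fills grey matter, Tpt1 is spread over the section and Jph2 appears in scattered spots.

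Jph1 measured 185.9, 197.3, 211.3 and 216.0 CPM in the DG. The next highest area, CA1, had 72.9, 58.6, 87.1 and 78.6 CPM, so that no DG value came near any CA1 value. Against the mean of the other areas, the DG was higher by more than any other area (log2 ratio 2.34 ± 0.073 SE, adjusted p = 1.0e-52), in a comparison that called 23.1% of all genes higher there. The DG held 1071 of the 7506 Jph1 UMIs of the 4 sections (14.3%) in 167 of 13452 spots (1.24%). After every spot was thinned to 5000 UMIs, which left out none of the DG spots, 57.9%, 70.6%, 62.5% and 69.1% of DG spots held a Jph1 UMI. Over the whole section the thinned shares were 13.8%, 14.7%, 14.6% and 14.3%, from the 3589, 3216, 2687 and 3218 spots deep enough. Without thinning the DG shares ran from 97.5% to 100% and the whole-section shares from 27.1% to 49.3%, the last in the deepest section.

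Below the DG the levels of Jph1 lay closer together. CA1 averaged 74.3 ± 12.0 CPM (SD, n = 4 sections), the hippocampal area led by Ptgds and Zic1 72.0 ± 13.5, cortical layer 2-3 57.5 ± 5.82, CA2-3 53.3 ± 2.11 and layer 6 53.2 ± 8.51. All 5 were called higher than the mean of the other areas, with a log2 ratio of 0.999 ± 0.12 in CA1 and of 0.39 to 0.74 in the others, as was the hippocampal area led by Fgfr3 and Lcat (52.0 ± 9.09 CPM, 0.42 ± 0.13). The choroid plexus was also called (53.0 ± 16.0 CPM, log2 ratio 0.44 ± 0.18, adjusted p = 0.038), but it held fewer than 10 spots in MF replicate 2 and the call was lost when library size alone scaled the counts (0.28, adjusted p = 0.18). The lowest levels were in the thalamus (17.6 ± 3.21 CPM, log2 ratio −1.24), in the area led by Six3 and Pvalb (17.2 ± 4.41) and in the hypothalamus (14.1, 12.6, 9.31 and 12.4 CPM, log2 ratio −1.90 ± 0.087). DG and hypothalamus were 16.7-fold apart. When the areas were put in the order of their fitted levels and each was tested against the next, 3 of 22 steps were called for Jph1, of which the step from DG to CA1 was the largest (log2 difference 1.29 ± 0.12, adjusted p = 3.5e-16). The others lay between layer 5 and the meninges (0.41, adjusted p = 0.021) and between thalamus and hypothalamus (0.63, adjusted p = 8.2e-07). For the other neighbours no difference passed the test. Over the 88 steps of the 4 genes, 29.6% of the tests over all genes were called.

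Jph3 and Jph4 peaked in CA1, a pyramidal field that carries much of the output of the hippocampus. Jph3 had 449.6, 452.5, 540.3 and 416.5 CPM there (log2 ratio 0.77 ± 0.057, adjusted p = 6.5e-23) and Jph4 468.6, 480.0, 551.5 and 532.5 CPM (0.77 ± 0.061, adjusted p = 5.9e-21). In CA1 17.8% of all genes were called higher. In the order of fitted levels CA1 was followed by other grey matter, with neither of the first 2 steps called. For Jph3 the next areas were CA2-3 (419.9 ± 47.1 CPM) and the hippocampal neuropil (442.1 ± 72.2), and for Jph4 the cortical area led by Ndst4 and Hrk (499.3 ± 25.6) and layer 2-3 (476.3 ± 24.9). Both genes had their lowest level in the choroid plexus, with 130.3, 94.7, 87.5 and 69.7 CPM for Jph3 and 134.7, 123.5, 106.2 and 76.7 CPM for Jph4, and white matter was low as well, at 179.9 ± 5.37 and 189.5 ± 14.6 CPM. From highest to lowest area, Jph3 spanned 4.86-fold and Jph4 4.61-fold.

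The gradients of these 2 neuronal junctophilins were shallow at each step. Of 22 neighbouring pairs, 2 were called for Jph3, the last and largest from medial habenula to choroid plexus (log2 difference 0.68, adjusted p = 2.2e-06), and 1 for Jph4, from the area led by Six3 and Pvalb to the choroid plexus (0.38, adjusted p = 0.019). Over the 23 areas their levels had a Pearson r of 0.924 on the log2 scale, a description over areas that share sections and depth. They parted in a few places. The DG was called higher for Jph4 (464.4 ± 23.1 CPM, log2 ratio 0.48 ± 0.055) but not for Jph3 (350.4 ± 41.4, 0.18 ± 0.053), and CA2-3 was among the top areas for Jph3 (log2 ratio 0.69) and in 13th place by mean level for Jph4 (0.28). Whether these ratios differ between the genes was not tested. Jph3 also varied by section, with HF replicate 1 the highest and HF replicate 2 the lowest of the 4 in CA1, layer 2-3, layer 4 and striatum, whereas HF replicate 2 was the lowest section of Jph4 in none of these areas.

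In the neocortex layer 2-3 was called higher for all 3 testable junctophilins, while the deeper layers were not alike. Layer 2-3, whose neurons project within the cortex, gave these calls for Jph1 (50.1, 62.3, 55.5 and 62.0 CPM, log2 ratio 0.53 ± 0.092), for Jph3 (425.0, 398.3, 489.2 and 371.3 CPM, 0.56 ± 0.048) and for Jph4 (482.5, 465.2, 449.6 and 507.7 CPM, 0.62 ± 0.052). Layer 4, the main target of thalamic input, was also called higher for Jph3 (417.7 ± 55.01 CPM, 0.56 ± 0.047), whereas Jph4 (349.2 ± 18.4 CPM, 0.16 ± 0.054) and Jph1 (39.6 ± 1.36 CPM, 0.005 ± 0.091) were not called there. Layer 5, which holds neurons that project out of the cortex, was called lower for Jph1 (33.2 ± 3.47 CPM, −0.28 ± 0.094) and not called for Jph3 (296.2 ± 31.4 CPM) or Jph4 (307.2 ± 16.7 CPM). In layer 6 Jph1 (53.2 ± 8.51 CPM, 0.39 ± 0.076) and Jph4 (383.7 ± 17.5 CPM, 0.29 ± 0.050) were called higher and Jph3 was not (321.2 ± 34.7 CPM, 0.15 ± 0.047). Tpt1 was called in none of the 4 layers, with 562.6 ± 44.6 CPM in layer 5 and 676.5 ± 44.4 CPM in layer 4. Of all 12590 features tested, 2056 were called higher in layer 2-3, 1998 in layer 4 and 1590 in layer 6. In layer 5, 2113 were called lower.

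Below the cortex, the striatum and the thalamus stood on opposite sides. The striatum, a nucleus of inhibitory projection neurons, was called higher for Jph3 (349.1, 369.9, 436.2 and 315.3 CPM, log2 ratio 0.29 ± 0.050) and Jph4 (394.9, 437.0, 518.2 and 460.9 CPM, 0.47 ± 0.053) and was not called for Jph1 (39.0 ± 1.19 CPM, −0.063 ± 0.10). The thalamus was called lower for all 3, at 17.5, 17.7, 21.5 and 13.7 CPM for Jph1, 224.3, 233.1, 245.2 and 204.2 CPM for Jph3 (−0.38 ± 0.046) and 177.1, 183.5, 207.9 and 187.9 CPM for Jph4 (−0.79 ± 0.052). The hypothalamus and the medial habenula were also called lower for all 3. Among all 12590 features tested, 2282 were called lower in the thalamus, 2303 in the hypothalamus and 2092 in the medial habenula. In the striatum 1516 were called higher. Tpt1 was called in none of these areas and measured 610.6 ± 17.2 CPM in the thalamus and 667.7 ± 26.5 CPM in the striatum.

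Jph2, the cardiac member, was close to the limit of what the panel detects. The 4 sections held 98, 34, 39 and 22 Jph2 UMIs, or 1.09, 0.80, 1.12 and 0.52 CPM, and it did not pass the filter on low counts in the comparison of areas. The meninges held 51 of its 193 UMIs (26.4%) in 449 of 13452 spots (3.34%). Their level was 13.3, 4.36, 9.77 and 4.14 CPM, from 31, 5, 10 and 5 UMIs. Fitted without the filter, the meninges exceeded the mean of the other areas by a log2 value of 3.95 ± 0.38 (adjusted p = 5.6e-24), a value that rests on few UMIs and on a fit added after the data were seen. The choroid plexus held 2, 2, 0 and 0 Jph2 UMIs and the DG 1 UMI in all 4 sections together, too few to give either a level.

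The spots with a Jph2 UMI were marked by smooth muscle genes. In the 85, 34, 36 and 22 spots that held one, a list of 8 markers of vascular smooth muscle and pericytes summed to 771.1, 362.9, 800.0 and 660.3 CPM, against 125.4, 126.2, 126.4 and 123.6 CPM in the remaining spots. The skeletal and cardiac muscle markers did not follow: they summed to 16.7, 3.95, 8.53 and 10.2 CPM in spots with Jph2 and to 12.1, 12.4, 10.5 and 12.5 CPM in the others. Neuronal markers were lower where Jph2 was found, with 5265 to 5934 CPM against 6628 to 6887. Spots with a Jph2 UMI were also somewhat deeper, with medians of 25546, 13661.5, 11235.5 and 12538 UMIs against 23526, 12057, 9267 and 11816. The meninges, with 51 of the 193 Jph2 UMIs, had Tagln, a gene of the smooth muscle list, among their leading genes. The part of depth and of position in these values was not tested.

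Tpt1 was detected in every area and had the narrowest range of the 4 genes that could be compared, 2.18-fold from highest to lowest. The choroid plexus, the epithelium that secretes cerebrospinal fluid, had 963.5, 835.7, 1087 and 1134 CPM (log2 ratio 0.76 ± 0.052, adjusted p = 4.1e-25), and 25.6% of all genes were called higher there. White matter followed with 893.9, 933.1, 985.4 and 816.5 CPM (0.46 ± 0.041), then the meninges with 885.8 ± 78.8 CPM, which fell short of the 1.2-fold threshold (0.25 ± 0.044). CA1 had the lowest level, 507.3, 474.5, 417.5 and 446.4 CPM (−0.49 ± 0.055, adjusted p = 3.2e-13), and CA2-3 (508.3 ± 47.3 CPM, −0.27) and the cortical area led by Ndst4 and Hrk (520.3 ± 39.0 CPM, −0.38) were the other areas called lower. One step of 22 was called, from choroid plexus to white matter (log2 difference 0.29, adjusted p = 0.00018). In the DG Tpt1 measured 779.3, 795.0, 730.6 and 772.0 CPM, above the mean of the other areas by less than the threshold fold (0.11 ± 0.046, adjusted p = 0.039). GENCODE vM21 annotates 6 processed pseudogenes of Tpt1. None of them is a feature of the panel, so how far its probes catch their transcripts was not tested.

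**Figure D2:**
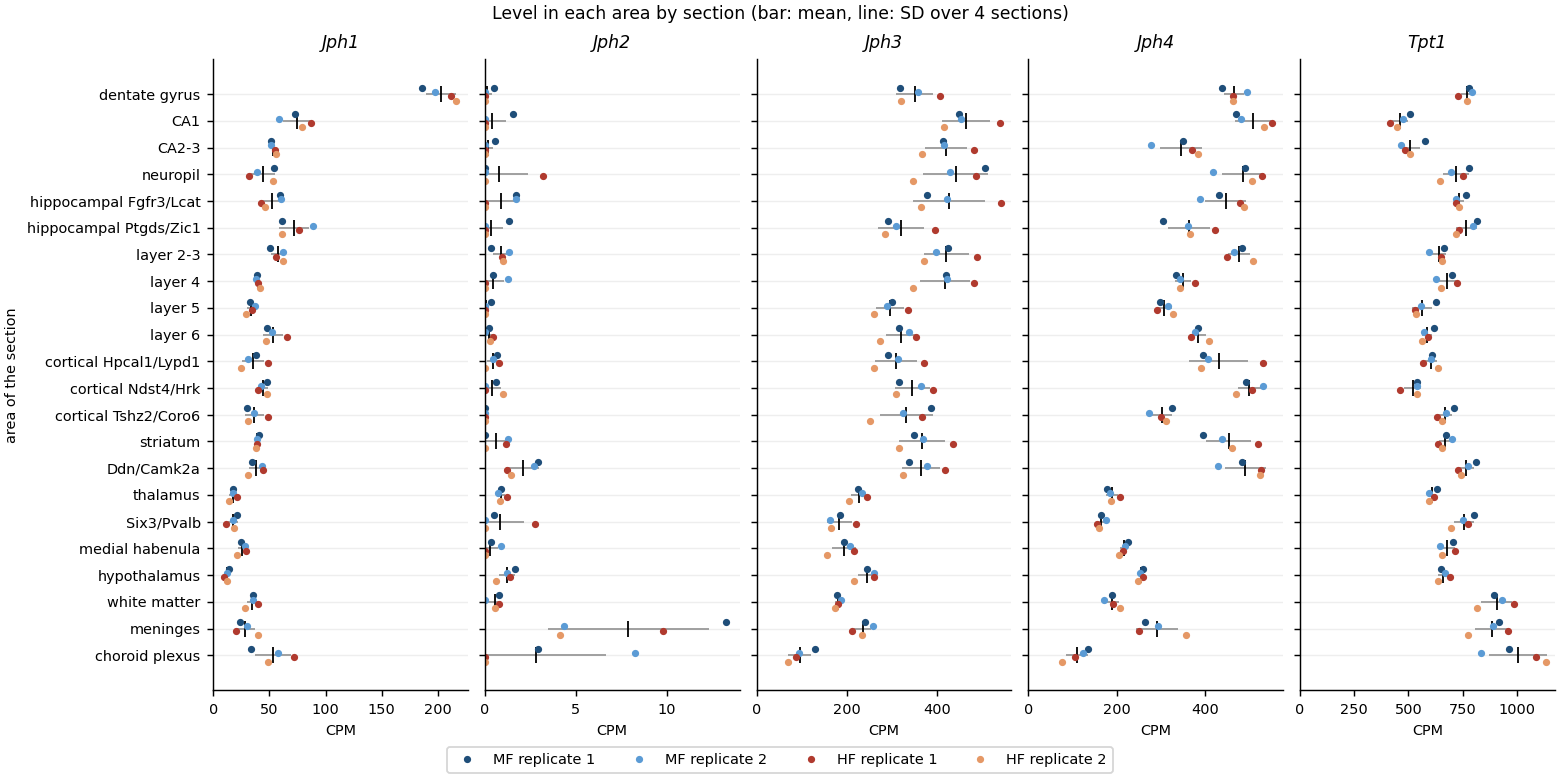
Level of each of the 5 genes in 22 of the 23 areas, on an axis in CPM, with 1 point per section, a tick at the mean of the 4 sections and a line for its SD. Jph1 is set apart in the DG, where all 4 sections lie between 185.9 and 216.0 CPM, while CA1 is the highest area of Jph3 and Jph4 and the lowest of Tpt1.

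Over the 23 areas, Pearson's r with Tpt1 was −0.60 for Jph3, −0.50 for Jph4 and −0.028 for Jph1, and r between Jph1 and its relatives was 0.39 for Jph3 and 0.49 for Jph4. With the summed level of 8 neuronal markers, r was 0.75 for Jph3, 0.60 for Jph4, 0.12 for Jph1 and −0.77 for Tpt1. Jph2 had an r of 0.81 with the smooth muscle and pericyte list and of 0.70 with meningeal fibroblast markers. Tpt1 also ran with these lists, at 0.73 and 0.75. As measured by Moran's I, a score of how alike neighbouring spots are, Jph4 was the most ordered in space of the 5, with 0.37, 0.27, 0.24 and 0.28, which put it among the top 1.89% to 2.66% of features in each section. Jph1 had 0.19, 0.12, 0.10 and 0.14 (top 6.42% to 9.61%), and Jph2 lay between −0.0025 and 0.026. All of these are descriptions across areas or spots, which share libraries and depth and are not replicates.

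The genes whose levels over the 23 areas were most like those of each member were taken from the 10263 other features (10264 for Jph2, itself below the limit) that averaged at least 10 CPM over areas. For Jph1 these were Nfib, a nuclear factor I transcription factor (r = 0.886), Plekhg5 (0.859), Neurod2, a transcription factor of excitatory neurons (0.844), Foxk1 (0.842) and Lyst (0.842). Jph3 was closest to Dlg4, the postsynaptic scaffold PSD-95 (0.961), followed by Socs7, Arf3, Crtc1 and Adgrb2. Jph4 was closest to Grik5, a kainate receptor subunit (0.964), followed by Agap2, Fbxl16, Gpr27 and, in common with Jph3, Dlg4 (0.931). For Jph2 the list was Myo1c (0.866), Ltbp4, Fmod and the smooth muscle genes Tagln (0.830) and Acta2 (0.829), and for Tpt1 it was Nfe2l2, a transcription factor of the oxidative stress response (0.955), Glis2, Nfatc3, Plin3 and Lama2.

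Within the DG, the clustering found 2 groups of spots in every section. One, of 103 spots, was led by Dsp, C1ql2, Grm2 and Prox1, and held 8 of the DG markers among its leading genes. The other, of 64 spots (14, 13, 18 and 19 by section), was led by Igfbpl1, Neurod1, Sema3c and Sox11, with Dcx, a gene of newborn neurons, also among its leading genes. All 3 junctophilins that could be tested were higher in the cluster led by Dsp, and Jph1 by the most. Jph1 had 231.2, 225.7, 247.1 and 278.2 CPM there and 117.5, 158.0, 168.8 and 129.0 CPM in the cluster led by Igfbpl1, with no overlap (1.87-fold, log2 difference 0.91 ± 0.12, adjusted p = 1.9e-09). Jph3 differed 1.33-fold (0.41 ± 0.089, adjusted p = 0.00022) and Jph4 1.29-fold (0.37 ± 0.090, adjusted p = 0.0013). Tpt1 was on the other side without passing the test, with 710.4, 726.6, 688.0 and 718.9 CPM against 883.5, 889.3, 781.1 and 846.1 CPM (−0.17 ± 0.070, adjusted p = 0.078). Of all genes tested, 16.2% were called between the clusters, and this comparison was added after the clusters had been seen. The cluster led by Igfbpl1 also held more RNA of other cells: 8 oligodendrocyte markers summed to 11512.3, 8739, 7415 and 7333 CPM there, against 8629, 6434, 5255 and 4695 CPM, and 8 markers of immature granule neurons, which took part in the clustering, to between 1819 and 2402 CPM against between 979.6 and 1100 CPM. Their part in the differences of the junctophilins was not tested.

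**Figure D3:**
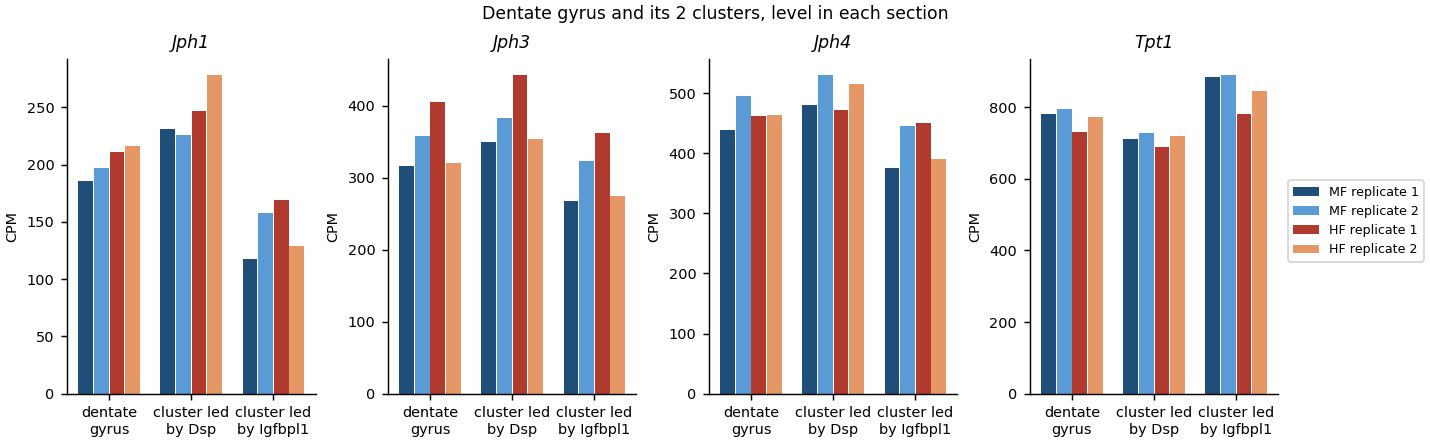
Levels of Jph1, Jph3, Jph4 and Tpt1 in CPM in the whole DG, in its cluster led by Dsp and in its cluster led by Igfbpl1, with 1 bar per section. Every section has more Jph1 in the cluster led by Dsp, from 225.7 to 278.2 CPM against 117.5 to 168.8 CPM, and less Tpt1.

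The partners of the junctophilins were not uniformly higher where Jph1 was high. Of 14 genes of calcium release and coupled channels, all measured, 5 were called higher in the DG than in the mean of the other areas and 1 lower, where 2907 of all 12590 features (23.1%) were called higher and 2919 lower. Higher were the ryanodine receptor Ryr2 (2.14-fold, 317.0 to 378.1 CPM over the sections), the L-type calcium channel genes Cacna1d (1.97-fold) and Cacna1c (1.84-fold), the ryanodine receptor Ryr3 (1.45-fold) and the calcium-activated potassium channel Kcnn2 (1.30-fold). Lower was the inositol trisphosphate receptor Itpr2 (0.50-fold). Of 15 measured proteins of contacts between endoplasmic reticulum and plasma membrane, 4 were called higher, a share near that of all features, namely Orai2, a pore subunit of store-operated calcium entry (3.88-fold, 154.3 to 174.2 CPM), Stim2, a calcium sensor of the reticulum (1.92-fold), C2cd2l (1.27-fold) and Gramd1a, at the threshold fold. The 7 called lower included the extended synaptotagmins Esyt3 (−2.70) and Esyt1 (−1.25), Orai3 (−0.76), Stim1 (−0.38), Vapb (−0.35) and Orai1 (−0.32). Esyt3 had only 0, 0.99, 1.03 and 0 CPM in the DG, below the floor of 3 UMIs in every section, so the size of its ratio is uncertain. The median log2 ratio was 0.15 for the calcium genes and −0.16 for the contact proteins, against −0.012 over all features tested.

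The mRNAs that share the terminal oligopyrimidine tract with Tpt1 were called higher in the DG more often than lower. Of 17 measured, 10 were called higher and 1, Nap1l1 (log2 ratio −0.27), lower, with a median log2 ratio of 0.36 against −0.012 over all 12590 features tested. The called genes included Hnrnpa1 (1.78-fold), the ribosomal scaffold Rack1 (1.48-fold, 529.4 to 628.5 CPM), the elongation factor Eef1a1 (1.47-fold, 1602 to 1634 CPM) and Eif4b (1.38-fold), besides Btf3, Eif3e, Pabpc1, Npm1, Eef2 and Eef1g. Tpt1 itself, at a log2 ratio of 0.11, lay below the median of this list. Of all calls in the DG 49.9% were higher, and 59.4% when the counts were scaled by library size alone, which moved the median ratio of all features by 0.071. In CA1 the share changed from 44.0% to 33.4% (median shift −0.092), in the choroid plexus from 50.7% to 39.3% (−0.16) and in the hypothalamus from 54.5% to 71.5% (0.11), while Jph1, Jph3, Jph4 and Tpt1 kept their directions in these 4 areas under this scaling.

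**Figure D4:**
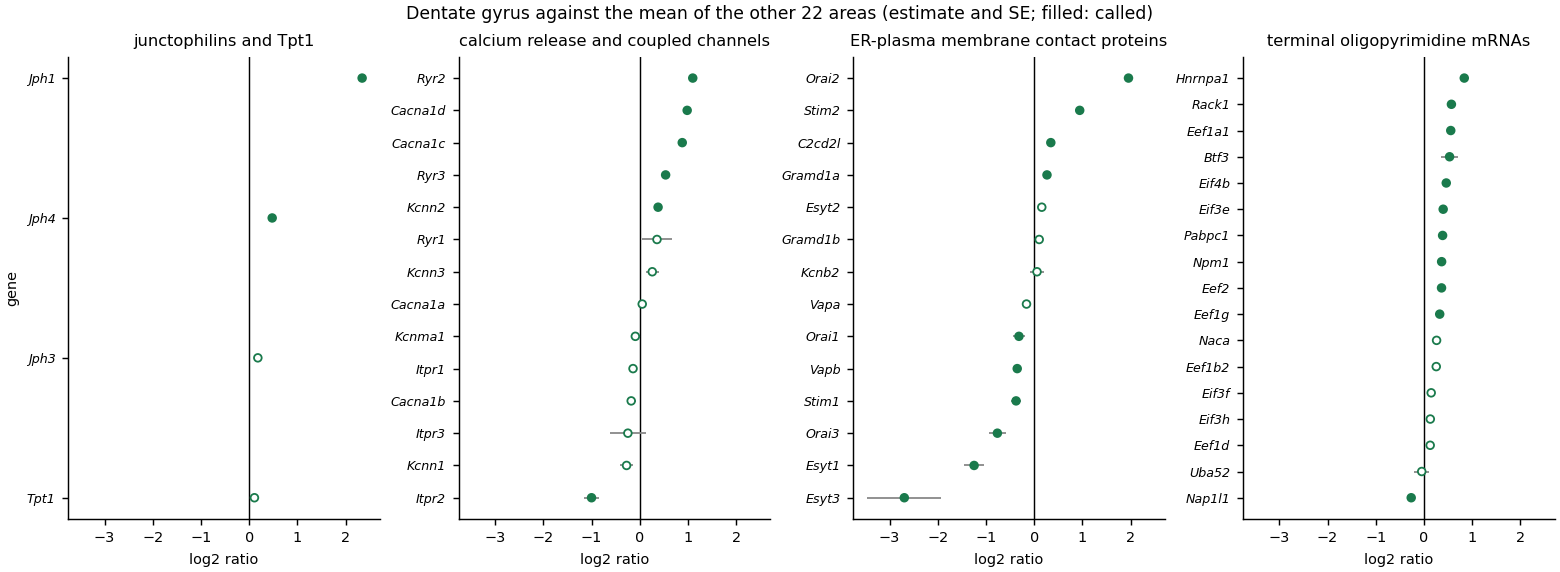
Log2 ratio of the DG to the mean of the other areas for the junctophilins and Tpt1 and for genes of the 3 pathway lists, each point a gene with its SE and filled points the called ones. Jph1 at 2.34 has the highest ratio, followed among the lists by Orai2, while the contact proteins reach down to −2.70 for Esyt3. Esyt3 lies below the floor of 3 UMIs in the DG of every section.

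The second question of the design was whether the maternal diet moved these genes. Over whole sections no difference was detected at this depth and number of sections. Jph1 had 35.5 and 34.6 CPM in the MF sections and 36.7 and 36.6 CPM in the HF sections, a separation without overlap but of only 0.055 ± 0.073 on the log2 scale (edgeR quasi-likelihood test, adjusted p = 0.89). Jph4 had 292.6, 290.5, 300.8 and 314.1 CPM, again without overlap (0.068 ± 0.074, adjusted p = 0.85). Such separation was common, since the groups did not overlap in 39.6% of all features tested. Tpt1 had 687.9, 661.8, 670.9 and 650.3 CPM (−0.040 ± 0.067, adjusted p = 0.91), Jph3 282.8, 286.3, 306.9 and 252.4 CPM (−0.035 ± 0.10) and Jph2 a log2 difference of −0.28 ± 0.38, and in these 3 genes the groups overlapped. The 8 oligodendrocyte markers summed to 25694.4 and 26846.1 CPM in the MF sections and to 21368.8 and 22863.3 CPM in the HF sections, and their part in these values was not tested. By edgeR 0% of the 14971 features tested were called over whole sections, with 1020 at an unadjusted p below 0.05 and 23 called by DESeq2. Left to 3 sections, edgeR called 1166 features without HF replicate 1 and 840 without HF replicate 2, where the lone HF section is assumed to vary like the others, and the 5 genes were not among them. With 2 sections per group, an exact permutation test of a single gene cannot give a two-sided p below 0.333.

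In the hippocampus taken as a whole, Jph1 and Jph4 were the members with the largest differences. Jph1 had 77.7 and 88.5 CPM in the MF sections and 95.5 and 100.3 CPM in the HF sections. The log2 difference was 0.26 ± 0.10 with a 95% interval from 0.03 to 0.49, and its p of 0.029 did not survive adjustment over all genes (adjusted p = 0.48, edgeR quasi-likelihood test). Jph4 had 370.6, 387.4, 431.1 and 440.0 CPM, a log2 difference of 0.21 ± 0.090 (95% interval 0.014 to 0.41, adjusted p = 0.52). Tpt1 had 738.9, 685.6, 679.9 and 651.4 CPM (−0.090 ± 0.093, adjusted p = 0.83). In all 3 the groups did not overlap, as was so for 38.8% of features, whereas for Jph3 HF replicate 1 was the highest section and HF replicate 2 the lowest (349.2, 371.1, 430.1 and 339.7 CPM). Of the 12633 features tested in the hippocampus, 0.0237% were called. The oligodendrocyte markers, 8 of 8 detected in every section, summed in the same spots to 25519.2 and 21544.7 CPM in the MF sections and to 17885.7 and 15612.2 CPM in the HF sections, so both HF sections lay below both MF sections. Their part in the differences of Jph1 and Jph4 was not tested. The DG made up more of the hippocampal spots in both HF sections, with 38 of 385 and 34 of 301 in MF and 40 of 285 and 55 of 325 in HF. It held 366 of 902 and 199 of 397 hippocampal Jph1 UMIs in MF and 205 of 378 and 301 of 506 in HF. The part of this mix of areas in the difference of Jph1 was not tested. The neuronal markers were between 7350 and 7528 CPM in all 4 sections.

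In the DG, where Jph1 was highest, its HF values of 211.3 and 216.0 CPM lay above its MF values of 185.9 and 197.3 CPM, which rest on 205, 301, 366 and 199 UMIs in that order. The log2 difference was 0.17 ± 0.12 with a 95% interval from −0.085 to 0.42 and an adjusted p of 0.91 by the edgeR quasi-likelihood test. Tpt1 had the opposite order without overlap, 779.3 and 795.0 CPM in MF and 730.6 and 772.0 CPM in HF (−0.064 ± 0.10, 95% interval −0.27 to 0.14, adjusted p = 0.97), though with spots thinned to 5000 UMIs the difference was 0.049. Jph3 (0.11 ± 0.12) and Jph4 (−0.005 ± 0.11) overlapped between the groups. With spots thinned to 5000 UMIs the difference of Jph4 turned positive, as given with the alternatives below, and was not called. The thinned shares of DG spots with a Jph4 UMI were 76.32% and 73.53% in MF and 92.5% and 94.55% in HF. In the DG 34.7% of features did not overlap and 0.143% of 10492, or 15, were called, a count that became 5 and 37 without MF replicates 1 and 2 and 81 and 37 without HF replicates 1 and 2. In the cluster led by Dsp, Jph1 differed by 0.22 ± 0.13 (adjusted p = 0.80), and in the cluster led by Igfbpl1 by 0.14 ± 0.20. The oligodendrocyte list was again lower in the HF sections, with 9776, 7402, 6244 and 5796 CPM in the DG, and its part was not tested.

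Across the 22 areas with at least 10 spots in every section, no member was called in any area, and 0.098% of all area tests were. Jph4 was fitted higher in the HF group in 17 areas and lower in 5, with differences from −0.11 in the area led by Six3 and Pvalb to 0.30 in the hippocampal area led by Ptgds and Zic1. That last area gave the only unadjusted p below 0.05 of the 4 genes (0.040, adjusted p = 0.79, edgeR). Tpt1 was fitted lower in 19 areas and higher in 3, from −0.18 in CA1 to 0.062 in layer 2-3. Jph1 was higher in 12 and lower in 10, from −0.43 in the hippocampal area led by Fgfr3 and Lcat to 0.28 in CA1, and Jph3 was higher in 12 and lower in 10, from −0.25 to 0.25. Jph2 passed the filter in the hypothalamus (−0.56 ± 0.52) and the meninges (−0.53 ± 0.60) alone. The areas share their 4 sections, so a one-sided count of areas is no test. The HF sections lay above the MF sections without overlap in 10 areas for Jph4, 4 for Jph1 and 0 for Jph3 and Tpt1, where 17.5% of all tests did, and below in 2 areas for Jph4, 3 for Jph1, 2 for Jph3 and 7 for Tpt1, where 17.4% did. In CA1, the separation held for Jph1 (72.9 and 58.6 CPM in MF, 87.1 and 78.6 CPM in HF), Jph4 (468.6 and 480.0, 551.5 and 532.5) and Tpt1 (507.3 and 474.5, 417.5 and 446.4), with adjusted p values of 0.94 to 0.96 by edgeR. Counting both directions, 2887 of the 8652 features tested in CA1 did not overlap between the groups.

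Whether the diet effect differed between areas was tested directly. In the edgeR quasi-likelihood test of the area by diet terms, the adjusted p was 1 for each of the 5 genes, whereas 0.047% of the 12764 features, or 6, passed. Leaving out HF replicate 1 raised that count to 416 and leaving out HF replicate 2 to 62, again with none of the 5 genes. Tests over single spots, the kind the study used, treat spots of the same animal as replicates. Over whole sections the Wilcoxon test called 5.65% of features, and in the DG 1.41%, at the same thresholds. None of the 5 genes was called over whole sections and none of the 4 tested in the DG, where Jph2 was not tested. All of their differences were below 1.2-fold. Over whole sections all 5 had an adjusted p below 0.05 by the Wilcoxon test, from 1.9e-16 for Jph1 to 0.0050 for Jph4. There they missed the call on fold alone. Over all spots the log2 difference was 0.071 for Jph1 and −0.019 for Tpt1. The pathway lists gave no calls either. In the DG the calcium genes were fitted higher in 8 of 12 tested, the contact proteins in 9 of 14 and the oligopyrimidine mRNAs in 8 of 17, with a lowest adjusted p of 0.74 among all of them by edgeR (Stim1, log2 difference −0.50 ± 0.22).

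**Figure D5:**
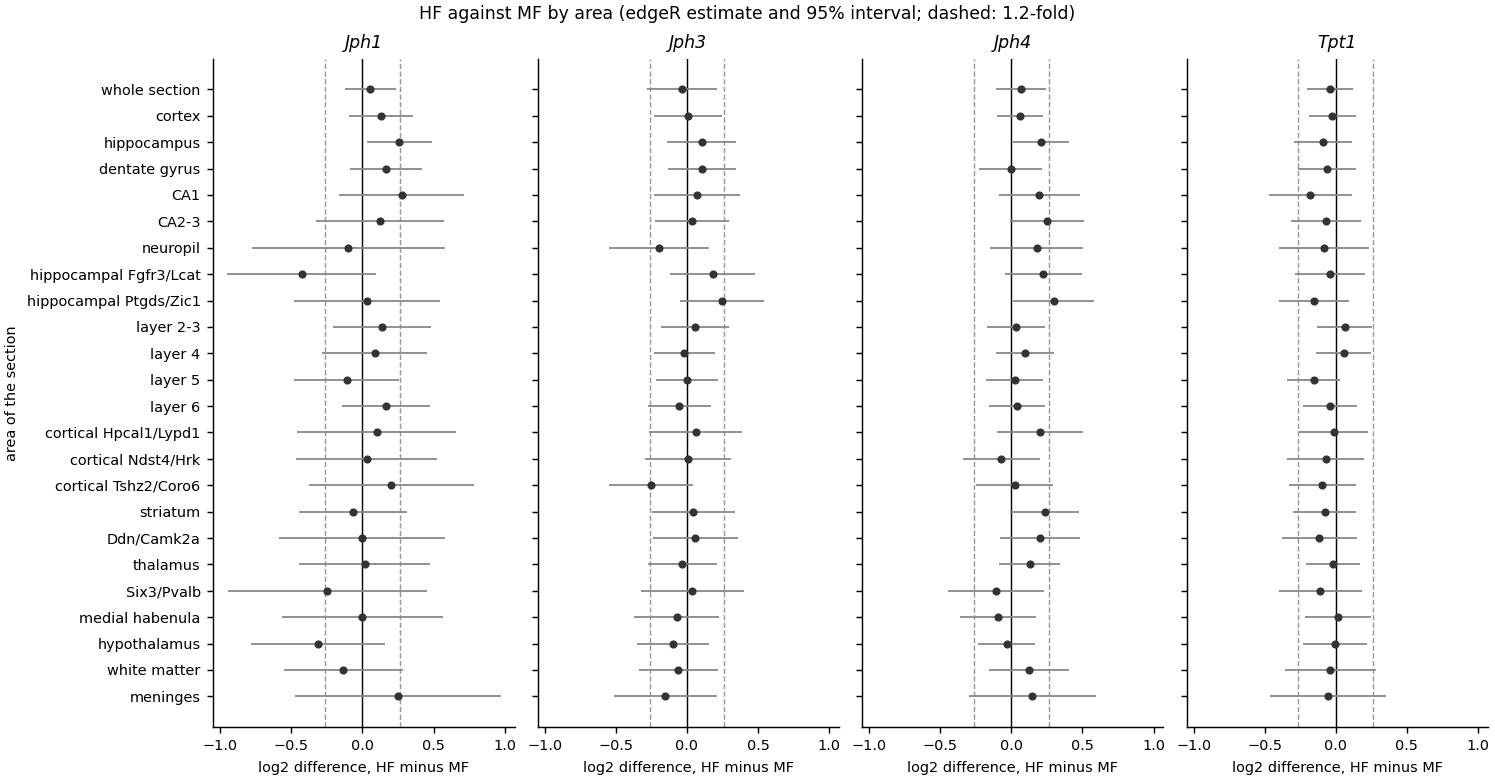
Difference between HF and MF sections by area for Jph1, Jph3, Jph4 and Tpt1, as log2 of HF over MF with its 95% interval, with areas and the whole section on the vertical axis. The dashed lines mark 1.2-fold. The intervals for the whole hippocampus lie above 0 for Jph1 (0.03 to 0.49) and Jph4 (0.014 to 0.41), and no difference is called after adjustment. The hippocampus pools areas whose shares of spots differ between sections. In the DG alone the interval for Jph1 runs from −0.085 to 0.42.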

How the data were processed

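The authors hybridised mouse whole-transcriptome probes to 4 formalin-fixed, paraffin-embedded coronal sections (Visium) and aligned the reads to mm10 with Space Ranger, whose version the labels do not give. The deposited matrices hold raw UMI counts per feature and spot, before the Seurat steps that the labels also name. The deposited enrichment tables, used as they are, hold Moran's I, a score per feature and section. Beyond a shared replicate number nothing in the labels pairs sections across groups. The study describes the sections as biological replicates, and with 2 per group the edgeR p-values of HF against MF measure only the spread between these sections. The p-values between areas and of the area by diet terms come from fits with the section as a block. They measure the spread left among the sums of areas within sections. Areas of the same section are not independent, so these p-values do not measure the spread between animals.

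A spot was kept if it held at least 500 UMIs and at least 250 genes, the limits of the study's methods. Log values were scaled within each section, and spots were clustered on 2000 variable genes, 30 principal components, 20 neighbours and Leiden resolution 1.0 (scikit-learn 1.9.0, leidenalg 0.10.2, igraph 0.11.9, Python 3.11.15), with cortical and hippocampal clusters divided again. The 5 genes and the pathway lists were left out of the clustering. A cluster was named where at least 3 listed markers of a class, more than of any other, were among its top 50 genes. It also needed a marker of that class among its very first genes, with no other class holding more there. All other clusters were called by their leading genes. UMI counts were summed per area and section and tested in R 4.3.3 with edgeR 4.0.16 (quasi-likelihood test, TMM, filterByExpr, Benjamini-Hochberg over all features tested), with a section block where areas were compared. Spots of a section were never replicates, except in the methods' Wilcoxon test, kept as an alternative. The alternatives were DESeq2 1.42.0, library size alone, no filter, thinning to 5000 UMIs, Leiden resolutions of 0.5 and 1.5, scaling over all spots, replicate numbers as a block, crossed numbers and leaving out each section. The tests were tried on simulated counts first.

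The 4 sections held 34983708 to 90098381 UMIs, and a count of 3 UMIs was taken as the floor, which covers counting error only. The 5 genes, the gene lists and the areas were chosen with earlier results of these data known. The genes named are the 5 members, the called genes of each pathway list and, for each member, the 5 features with the highest Pearson r to it over the areas on log2(CPM + 1), among those averaging at least 10 CPM. Of the lists, 14 of 14 calcium genes, 15 of 16 contact proteins and 17 of 18 oligopyrimidine mRNAs are on the panel. Image scale factors were not used. One area and 1 gene of the contact protein list are counted but not reported singly here.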

Additional observations from a re-analysis of the deposited data

How the results depend on the processing

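Of the differences between HF and MF sections, 67 of 70 kept direction and call over whole sections, 55 of 56 in the hippocampus and 55 of 64 in the DG, over all alternatives run. No member became called in any of them. With 1 section left out, the log2 difference of Jph2 over whole sections ran from −0.91 to 0.17 and was 0.0006 without MF replicate 1, that of Jph3 from −0.17 to 0.085 over whole sections, from −0.060 to 0.26 in the hippocampus and from −0.057 to 0.28 in the DG, and that of Jph4 in the DG from −0.096 to 0.085, with 0.085 without MF replicate 2 and 0.0019 without HF replicate 1. In the DG Jph4 also turned to 0.37 with thinned spots, 0.0043 at Leiden resolution 0.5, 0.0043 without a filter, 0.0054 when genes were scaled over all spots and 0.040 in the cluster led by Igfbpl1, and Tpt1 turned to 0.049 with thinned spots, having run from −0.10 to −0.023 with 1 section left out. The cause of these reversals was not tested. Jph1 kept a positive difference in all 3 places, from 0.034 to 0.078 over whole sections, 0.16 to 0.34 in the hippocampus and 0.12 to 0.21 in the DG when sections were left out.

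Over whole sections edgeR called 0 features, against 1 with thinned spots, 5 without a filter, 23 by DESeq2, 789 by the Wilcoxon test over single spots and 0 to 1166 with 1 section left out. In the DG it called 15, against 0 with thinned spots, 8 when genes were scaled over all spots, 46 without a filter, 2 by DESeq2, 196 by the Wilcoxon test and 5 to 81 with 1 section left out. The area by diet terms passed in 6 features, and in 4 to 416 with 1 section left out. Same-numbered sections deviated apart (r = −0.165 over 14971 features), so the numbers were not taken to pair the sections. With the replicate number as a block the DG gave 28 calls and whole sections 0, and the log2 difference of Jph1 was 0.055 over whole sections, 0.25 in the hippocampus and 0.16 in the DG. Crossing the numbers, added after the data were seen, gave 36 and 11 calls.

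The levels across areas moved little when sections were left out: Jph1 by 2.30 to 2.38 in the DG and −2.07 to −1.81 in the hypothalamus, Jph3 and Jph4 in CA1 by 0.77 to 0.83 and 0.77 to 0.84, and Tpt1 by 0.65 to 0.84 in the choroid plexus and −0.49 to −0.43 in CA1, all as log2 ratios to the other areas. At resolution 0.5 no choroid plexus area was found, so Tpt1 has no value there. Without thinning, the mean shares of spots with a UMI over sections were 34.0% for Jph1 over whole sections, 98.9% for Jph1 in the DG and 9.33% for Jph2 in the meninges. Across the settings, the oligopyrimidine mRNAs had 7 to 12 genes called higher in the DG and 0 to 1 lower, the contact proteins 2 to 4 and 2 to 7, and the calcium genes 4 to 6 and 0 to 2.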
